A study of Mus musculus with 2 samples.

Results

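The collagen chains are the 44 genes on the array whose symbol is Col, a type number, the letter a and a chain number. They were taken from the gene spots of both arrays by that pattern, out of 29924 gene names in all. They cover 69 of the 39429 gene probes, each printed in 4 spots. Of the 44 genes, 11 encode fibrillar chains, 6 the collagen IV chains of basement membranes, and 27 other chains. The samples were whole ureters of NMRI mouse embryos, dissected at E15.5 and kept on transwell membranes for 6 days. Mutant ureters, labelled Fgfr1/2cDKO, carried the Tbx18(cre/+) allele together with Fgfr1(fl/fl) and Fgfr2(fl/fl). Control ureters carried Fgfr1(fl/?) and Fgfr2(fl/?), where the second allele is not given, and no Cre allele is listed for them, so the Tbx18(cre/+) allele itself also separates the genotypes. Cre from the Tbx18 locus acts in the mesenchyme around the ureteric epithelium and in its descendants, and cells outside that lineage keep the receptor genes.

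Total RNA of both genotypes was hybridised together on each of 2 two-colour Agilent arrays. On array 1 (replicate 1, labelled male) the mutant RNA carried Cy5, and on array 2 (replicate 2, labelled female) it carried Cy3. The replicate, the sex given in the labels and the dye orientation thus change together and cannot be told apart. Nothing in the labels says whether the replicates came from separate litters or how many ureters went into an RNA, so p-values reflect only the spread of these samples, which may be technical in origin. The arrays shared a slide and a scan. The gene probes well above background made up 69.3% to 77.4% in the 4 RNAs, and precision is limited by there being 2 arrays. Of the targeted genes, Fgfr1 had a log2 ratio of mutant over control of -0.33 ± 0.15 (SD, n = 2 arrays) and Fgfr2 one of 0.56 ± 0.02. At an adjusted p under 0.05 Fgfr1 did not pass (limma adjusted p = 0.134), while Fgfr2 was higher in mutant RNA (adjusted p = 0.0307). The sources used here do not say whether these probes lie in the deleted exons, so they do not check the labels. The Fgfr2 value runs against its label, and "mutant" here means the RNA labelled so.

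Collagens are secreted or membrane-bound proteins in which 3 chains wind into a triple helix, and every stretch of helix repeats the triplet glycine-X-Y. Fibrillar collagens assemble into the banded fibrils that give a tissue its tensile strength. Collagen IV forms the sheet-like network of basement membranes, under the urothelium and around each smooth muscle cell. The remaining types decorate fibrils, form beaded filaments or short networks, or span the cell membrane. In the ureter these proteins make up the lamina propria, the outer adventitia and the matrix between muscle cells. The repeat can be read directly in 4 of the 69 collagen probes (5.80%), against 39 of all 39429 probes (0.0989%). These 4 are shown because the repeat defines the family. They are the array's own 60-base probes, with capitals marking GGN glycine codons spaced 9 bases apart, at least 4 in a row, read in the sense direction. By the file headers these coordinates belong to build mm9: chr15:55347733-55347792 for Col14a1, chr4:47283786-47283845 for Col15a1, chr4:129756457-129756516 for Col16a1 and chr3:130270497-130270556 for Col25a1, with all 4 genes on the plus strand.
Col14a1: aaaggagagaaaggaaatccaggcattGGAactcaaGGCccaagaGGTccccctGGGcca
Col15a1: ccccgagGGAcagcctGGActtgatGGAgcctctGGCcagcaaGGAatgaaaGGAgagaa
Col16a1: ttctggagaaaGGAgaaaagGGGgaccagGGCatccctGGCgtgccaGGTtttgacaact
Col25a1: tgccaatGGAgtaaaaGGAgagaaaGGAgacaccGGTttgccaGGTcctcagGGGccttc
The run of glycine codons is 4 long in the Col14a1 probe, 5 in the Col16a1 probe, and 6 in the Col15a1 and Col25a1 probes.

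Of the 44 chains, 39 had a probe that stood well above background in the control or in the mutant RNA of both arrays, and were tested. Of the others, Col6a5, Col9a3, Col13a1 and Col28a1 were not well above background in any of the 4 RNAs, and Col6a6 was well above it in 1 RNA only. Among the 39, 3 chains were higher in mutant RNA at an adjusted p under 0.05 (limma, Benjamini-Hochberg over 21981 genes), where 1.78% of all genes tested were higher. No chain was lower, where 2.05% of all genes were, so that 3.83% of all genes passed in either direction. The 3 were Col26a1, Col9a2 and Col18a1, and all belong to the other chains: none of the 11 fibrillar and none of the 6 basement membrane chains passed. At an unadjusted p under 0.05 there were 13 chains, 10 with a ratio above 0 and 3 below. Of all genes 22.5% reached that level, 11.1% above 0 and 11.4% below.

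Most chains had a ratio above 0, more of them on array 2 than on array 1, though 12 of the 39 changed sign when arrays were only centred on their median. Their median log2 ratio was 0.10, beside -0.02 for all genes, and -0.07 under that centring, which moved the median of all genes to -0.14. On array 1 the median of the chains was 0.02 and on array 2 it was 0.25, while all genes stood at -0.03 and near 0. The mean ratio was above 0 in 30 chains and below 0 in 9, and ran from -0.47 for Col24a1 to 0.67 for Col26a1. On both arrays 19 chains lay above 0 (30.5% of all genes) and 6 lay below 0 (36.0% of all genes). The remaining 14 had opposite signs on the arrays (33.5% of all genes), and in 12 of these array 2 was the one above 0. The ratio was larger on array 2 than on array 1 in 27 of 39 chains (69.2%), and in 54.7% of all genes. The levels of both mutant RNAs lay above those of both control RNAs for 14 chains (21.5% of all genes) and below them for 5 (23.6% of all genes).

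**Figure D1:**
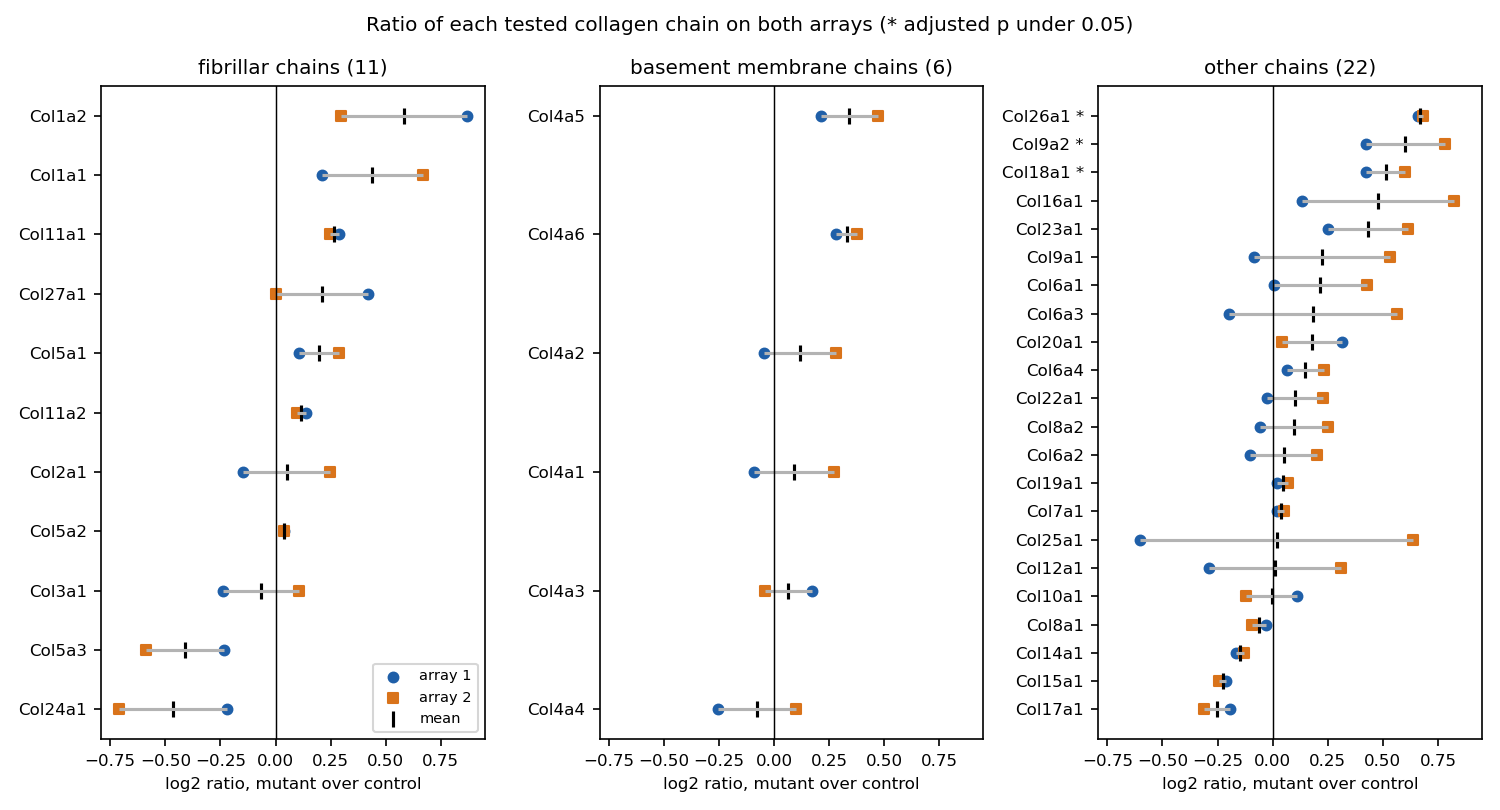
Log2 ratio of mutant over control (horizontal axis) for each of the 39 tested chains, in 3 panels for fibrillar, basement membrane and other chains, ordered by mean. Circles are array 1, squares array 2, bars the mean of both, and an asterisk marks an adjusted p under 0.05. Col26a1, Col9a2 and Col18a1 lead the other chains, and Col24a1 and Col5a3 lie lowest, at -0.47 and -0.41.

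**Figure D2:**
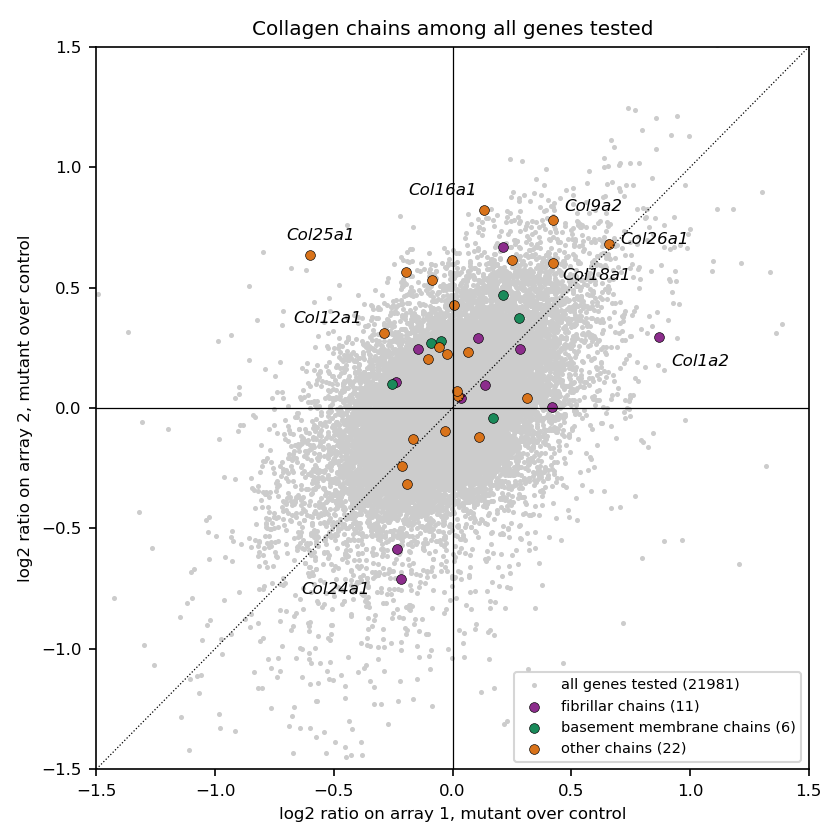
Log2 ratio of mutant over control on array 1 (horizontal) against array 2 (vertical) for all 21981 genes tested (grey) and the 39 chains (coloured by class); 58 genes lie outside the axes, and the dotted line marks equal ratios. Most chains lie above the dotted line, and Col25a1 and Col12a1 lie above 0 on array 2 and below 0 on array 1.

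Col26a1 encodes the chain of collagen XXVI, a secreted collagen with an EMI domain. Its level, as normalised log2 intensity, was 9.56 in control and 10.22 in mutant RNA on array 1, and 9.99 in control and 10.67 in mutant RNA on array 2. Both mutant RNAs lay above both control RNAs, and the step was nearly the same size on each array. The log2 ratio was 0.67 ± 0.02 (SD, n = 2 arrays; limma adjusted p = 0.0212), a 1.59-fold higher level. Its probe lies at chr5:137217629-137217688 (mm9), and a second probe that overlaps it gave 0.67 as well, so it is no separate check.

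Col9a2 encodes a chain of collagen IX, which sits on the surface of thin fibrils and is best known from cartilage. Its level was 12.15 in control and 12.58 in mutant RNA on array 1, and 12.32 and 13.10 on array 2. The genotypes did not overlap, and the step on array 2 was the larger. The log2 ratio was 0.60 ± 0.25 (SD, n = 2; limma adjusted p = 0.0385), or 1.52-fold. The probe lies at chr4:120727698-120727757 (mm9), and it is the only Col9a2 probe. Its partner chains in the collagen IX trimer gave no such call. Col9a1 had ratios of -0.09 and 0.53 on the arrays (adjusted p = 0.412), and its second tested probe, at -0.17 on average, pointed the other way. That second probe was dim, at 7.20 in control RNA on array 1, where the probe read was at 10.46. Col9a3 was not well above background in any of the 4 RNAs. Of 5 tested cartilage markers 1 was higher (1.78% of all genes), the transcription factor Sox9, at 0.73. The defining cartilage genes Acan and Matn1 had ratios of -0.003 and -0.01, Comp was not tested, and Matn3 and Hapln1 were at -0.32 and 0.16 (adjusted p = 0.218 and 0.435). The summed level of the 5 in mutant RNA was 1.22 times that of control on array 1 and 1.23 times on array 2. Without Sox9, a sum taken after its value was seen, these ratios were 0.908 and 1.08. The markers in that sum were dim. In control RNA on array 1 they ran from 7.35 for Matn1 to 8.05 for Hapln1, where the undetected Col9a3 was at 6.08. Whether cartilage cells have any part in the Col9a2 result was not tested.

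Col18a1 encodes collagen XVIII, a heparan sulfate proteoglycan of epithelial and vascular basement membranes whose end fragment is endostatin. Its level was 12.96 in control and 13.38 in mutant RNA on array 1, and 13.19 and 13.79 on array 2. Again both mutant RNAs lay above both controls. The log2 ratio was 0.51 ± 0.13 (SD, n = 2; limma adjusted p = 0.0439), or 1.43-fold. The probe lies at chr10:76514926-76514985 (mm9). A second probe at chr10:76515790-76515849 does not overlap the first and gave 0.42 ± 0.02, and when every probe was fitted as its own feature both probes passed, with adjusted p of 0.0281 and 0.0477. The related multiplexin chain, Col15a1, found in the matrix just outside basement membranes, had a ratio of -0.23 ± 0.02 with adjusted p = 0.244. Its other tested probes gave -0.12 and 0.17, so the direction of Col15a1 depends on the probe read.

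All 3 calls were lost under the same 4 of 11 alternative fits, while their sign held in all 11. The adjusted p ran from 0.00744 to 0.371 for Col26a1, from 0.0122 to 0.378 for Col9a2 and from 0.0225 to 0.390 for Col18a1. The 4 were the scanner software's processed signals, median centring, the authors' value table and separate channels. The other fits kept the normalisation reported. Those that changed only a filter or the variance model reuse the same ratios, so they are no separate check.

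**Figure D3:**
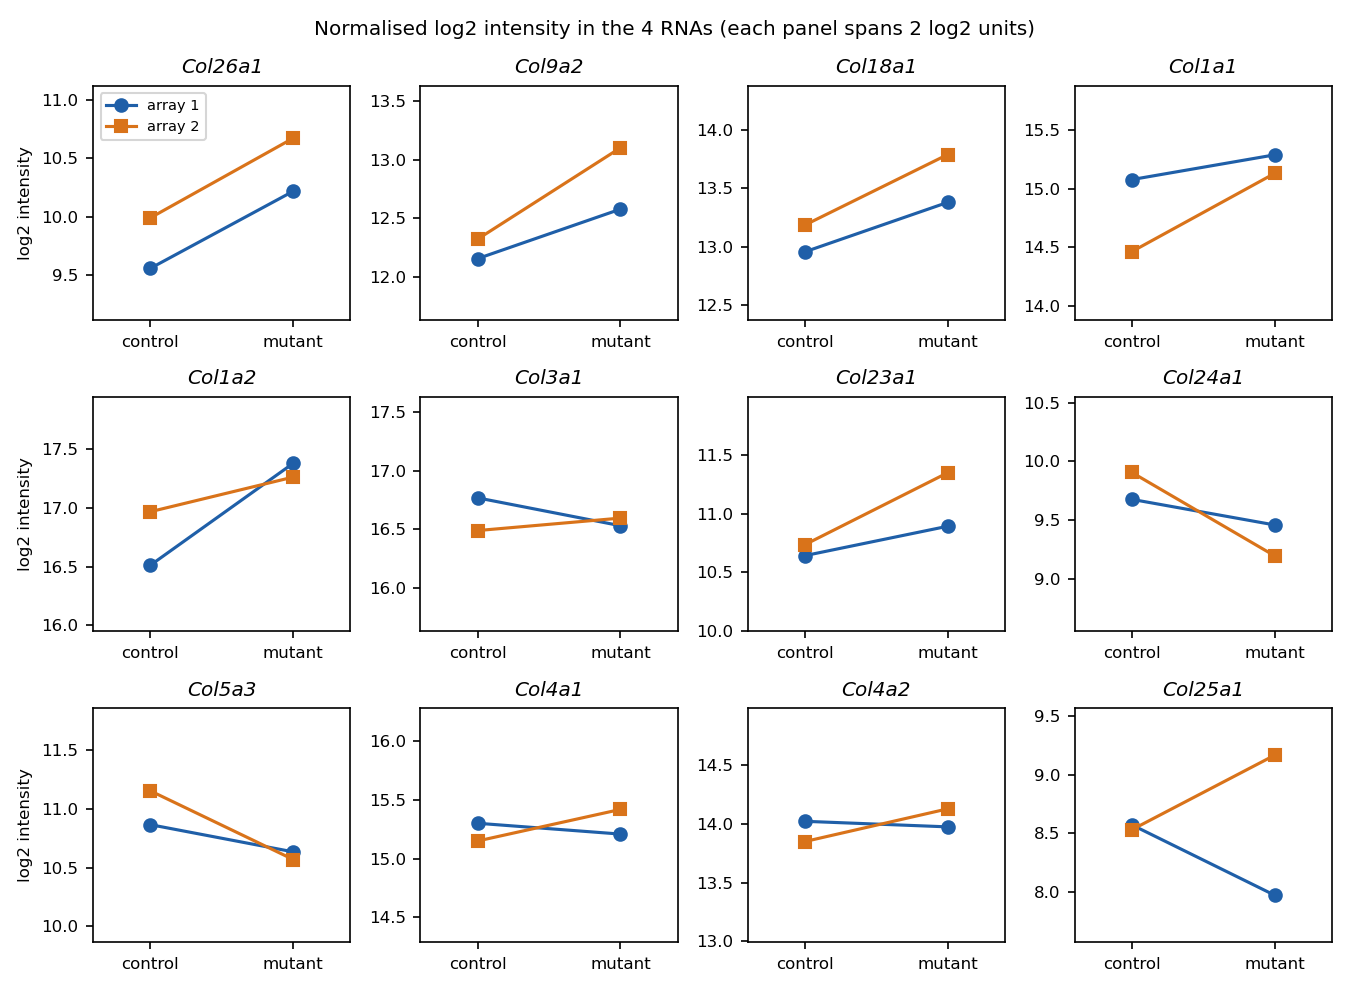
Normalised log2 intensity (vertical axis, each panel spanning 2 log2 units) of 12 chains in control and mutant RNA; lines join the RNAs hybridised on the same array, with circles for array 1 and squares for array 2. For Col26a1, Col9a2 and Col18a1 both lines climb and the mutant points lie above all control points, while for Col25a1 the lines run in opposite directions.

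The sequence just upstream of the start of the called chains is shown because they moved in the same direction; it comes from RefSeq on GRCm38.p6, a later build than that of the probes. Capitals mark each GGGCGG box on either strand (CCGCCC on the printed strand), the motif named for the factor Sp1. Col18a1 has 2 listed starts, with upstream windows at chr10:77113706-77113955 and chr10:77166531-77166780 on the minus strand. The window of Col9a2 lies at chr4:121039316-121039565 on the plus strand. Col26a1 is named only.
Col18a1, first start: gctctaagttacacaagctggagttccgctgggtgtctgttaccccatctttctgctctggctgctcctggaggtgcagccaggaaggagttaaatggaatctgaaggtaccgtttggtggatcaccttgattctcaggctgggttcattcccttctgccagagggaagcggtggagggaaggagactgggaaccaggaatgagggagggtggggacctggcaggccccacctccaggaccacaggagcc
Col18a1, second start: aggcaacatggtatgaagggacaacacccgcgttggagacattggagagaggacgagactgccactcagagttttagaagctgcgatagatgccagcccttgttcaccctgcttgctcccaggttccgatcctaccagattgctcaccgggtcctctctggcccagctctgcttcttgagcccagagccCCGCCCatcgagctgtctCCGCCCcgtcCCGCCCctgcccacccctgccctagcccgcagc
Col9a2: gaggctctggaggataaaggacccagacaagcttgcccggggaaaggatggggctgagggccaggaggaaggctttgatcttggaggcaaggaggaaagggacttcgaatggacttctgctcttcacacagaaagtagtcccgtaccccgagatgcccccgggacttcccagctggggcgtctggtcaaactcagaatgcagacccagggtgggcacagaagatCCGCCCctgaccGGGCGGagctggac
The first Col18a1 window holds 0 such boxes, the second 3 and that of Col9a2 2. Over the 38 such windows of the 35 chains matched by symbol, each the 250 bases before a start, 22 (57.9%) held GGGCGG on either strand, against 32.7% of 32851 windows of all genes. CCAAT on either strand was found in 34.2% of the collagen windows and 33.8% of all, and TATAAA on the gene's strand in 13.2% and 7.59%. A match describes letters in a window and says nothing of binding.

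Among the fibrillar chains, the partners of collagen I, the main fibril of tendon, bone and most stroma, had the largest ratios above 0, but neither passed. The median of the class was 0.12, with 0.11 on each array. An unadjusted p under 0.05 was reached by 5 of 11 (22.5% of all genes), 3 above 0 (11.1% of all genes) and 2 below (11.4% of all genes). Col1a2 was at 16.51 in control and 17.38 in mutant RNA on array 1, and at 16.97 and 17.26 on array 2. Both mutant RNAs lay above both controls, with most of the step on array 1. The ratio of 0.58 ± 0.41 (SD, n = 2) had a limma adjusted p of 0.0632, and it passed in 2 of 11 alternatives. Col1a1 was at 15.08 and 15.29 on array 1 and at 14.46 and 15.13 on array 2, control before mutant. Here the step lay mostly on array 2, the reverse of its partner. Its ratio was 0.44 ± 0.32 (adjusted p = 0.102).

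Collagen III and collagen V share fibrils with collagen I: the first is abundant in elastic and hollow organs, and the second starts fibrils and limits their width. Col3a1 was at 16.77 in control and 16.53 in mutant RNA on array 1, and at 16.49 and 16.60 on array 2. The genotypes overlapped and the arrays disagreed in sign, with a mean of -0.07 ± 0.24 (adjusted p = 0.790). Col5a1 was at 14.25 and 14.35 on array 1 and at 14.30 and 14.59 on array 2, a ratio of 0.20 ± 0.13 (adjusted p = 0.322) that turned to -0.08 under median centring. Col5a2 was at 12.42 and 12.46 on array 1 and at 12.57 and 12.61 on array 2, a ratio of 0.04 ± 0.003 (adjusted p = 0.865) that turned to -0.17 under median centring. The probes of Col3a1 and Col5a2 lie 25.6 kb apart on chromosome 1 on opposite strands. The remaining collagen V chain ran the other way. Col5a3 was at 10.87 in control and 10.63 in mutant RNA on array 1, and at 11.15 and 10.57 on array 2. Both mutant RNAs lay below both controls, with a ratio of -0.41 ± 0.25 (limma adjusted p = 0.101).

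Col24a1, a minor fibrillar chain known from developing bone, had the lowest ratio of all chains tested. It was at 9.68 in control and 9.46 in mutant RNA on array 1, and at 9.91 and 9.19 on array 2. The mutant RNAs again lay below the controls, more so on array 2, with a ratio of -0.47 ± 0.35 (limma adjusted p = 0.0943). Col27a1, the chain most like it and known from cartilage, had a ratio of 0.21 ± 0.29, nearly all of it from array 1. The chains of collagen XI, which nucleates the collagen II fibrils of cartilage, were at 0.27 ± 0.03 for Col11a1 (adjusted p = 0.183) and 0.12 ± 0.03 for Col11a2. Col2a1, the chain of collagen II itself, was at -0.15 on array 1 and 0.25 on array 2.

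The 6 basement membrane chains are encoded as 3 pairs of neighbouring genes that point away from each other. The class median was 0.10 (array 1 alone 0.06, array 2 alone 0.27), and none passed at an adjusted p under 0.05. An unadjusted p under 0.05 was reached by 2 of the 6 (22.5% of all genes), both above 0 (11.1% of all genes). Col4a1 and Col4a2 form the trimer found in nearly all basement membranes, and their listed starts lie 21 bases apart on chromosome 8. Col4a1 was at 15.30 in control and 15.21 in mutant RNA on array 1, and at 15.15 and 15.42 on array 2. Col4a2 was at 14.02 and 13.98 on array 1, and at 13.85 and 14.13 on array 2. Both genes showed the same pattern, slightly below 0 on array 1 and above 0 on array 2. The means were 0.09 ± 0.26 for Col4a1 (limma adjusted p = 0.710) and 0.12 ± 0.23 for Col4a2 (adjusted p = 0.604), and under median centring both turned below 0, to -0.20 and -0.14.

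Col4a5 and Col4a6 form the trimer of smooth muscle and bladder basement membranes, and their listed starts lie 1343 bases apart on the X chromosome. Col4a5 was at 11.50 in control and 11.71 in mutant RNA on array 1, and at 11.53 in control RNA and 0.47 higher in mutant RNA on array 2, with no overlap between the genotypes. Its ratio was 0.34 ± 0.18 (limma adjusted p = 0.132). Col4a6 was at 11.44 and 11.72 on array 1 and at 11.76 and 12.14 on array 2. Here the mutant RNA on array 1 lay just below the control RNA on array 2, but the ratio was alike on both arrays, at 0.33 ± 0.07 (adjusted p = 0.122). A second, dimmer Col4a6 probe gave -0.06 ± 0.02, so the gene's value depends on the probe read. Both RNAs of an array carry the same sex label. Col4a3 and Col4a4 make up, with Col4a5, the filter membrane of the kidney glomerulus. Col4a3 was at 6.87 and 7.04 on array 1 and at 6.85 and 6.81 on array 2, where the mutant RNA was not well above background. Col4a4 was at 9.17 and 8.91 on array 1 and at 8.91 and 9.01 on array 2. The genotypes overlapped for both, at 0.07 ± 0.15 (adjusted p = 0.773) and -0.08 ± 0.25 (adjusted p = 0.747).

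Of the 27 other chains, 22 were tested, with a median of 0.10, or -0.01 on array 1 and 0.24 on array 2. Collagen VI forms beaded filaments that link cells to the fibrils around them, from the chains of Col6a1, Col6a2 and Col6a3. Col6a1 had mutant over control log2 ratios of 0.004 on array 1 and 0.43 on array 2, from control levels of 15.498 and 15.44. Col6a2 was at 12.33 and 12.23 on array 1, and at 12.21 and 12.41 on array 2. Col6a3 was at 14.99 and 14.79 on array 1, and at 14.85 and 15.41 on array 2. All 3 lay above 0 on array 2 and near or below 0 on array 1, so their means of 0.22 ± 0.30, 0.05 ± 0.22 and 0.18 ± 0.54 were within the spread between arrays (adjusted p = 0.354, 0.842 and 0.554), and all 3 turned below 0 under median centring. The fourth tested chain of this type, Col6a4, had a mean of 0.15 ± 0.12.

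The tested chains that decorate fibrils or span membranes had means from -0.25 to 0.60. Col23a1, a membrane-spanning collagen that can be shed from the cell surface, was at 10.64 in control and 10.89 in mutant RNA on array 1, and at 10.73 and 11.35 on array 2. The genotypes did not overlap, and the ratio was 0.43 ± 0.26 (limma adjusted p = 0.0873). Its other tested probes gave 0.51 and 0.61, and with the mean of all 3 probes the chain passed (adjusted p = 0.0338). Col16a1, a fibril-associated collagen of smooth muscle and skin, was at 14.42 and 14.55 on array 1 and at 14.28 and 15.10 on array 2. On this probe most of the step lay on array 2, and the ratio was 0.48 ± 0.49 (adjusted p = 0.129). Its other tested probes gave 0.61 and, for the repeat probe printed above, 0.33, and with the mean of all 3 it passed as well (adjusted p = 0.0452). The probe at 0.61 was alike on both arrays, at 0.55 and 0.67. With each probe as its own feature that probe passed (limma adjusted p = 0.0132), while the brightest and the repeat probe did not (0.0990 and 0.103).

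Col14a1 and Col12a1 encode fibril-associated collagens of stroma exposed to strain. Col14a1 was at 14.71 in control and 14.54 in mutant RNA on array 1, and at 14.73 and 14.60 on array 2, a ratio of -0.15 ± 0.03 (limma adjusted p = 0.442). Its repeat probe gave -0.56 ± 0.22, which passed when each probe was its own feature (adjusted p = 0.0255), so both probes lay below 0 but differed in size. Col12a1 was at 13.00 and 12.71 on array 1 and at 12.68 and 12.99 on array 2, and its ratios of -0.29 and 0.31 cancelled. Col25a1, a membrane-spanning chain known from neurons, showed the widest split between arrays among the 39 chains. It was at 8.57 and 7.97 on array 1 and at 8.53 and 9.17 on array 2, where the control RNAs were alike and the mutant RNAs lay on either side of them. Its repeat probe gave 0.00 ± 0.05 and its other tested probe 0.29 ± 0.24, neither with the split of the brightest probe. Both were dimmer, at 7.01 and 6.80 in control RNA on array 1. Dim probes are pulled towards 0 by the offset of the background correction, so these could hardly show such a split.

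Col17a1 encodes the membrane-spanning collagen of hemidesmosomes, which fix basal epithelial cells to the basement membrane. Its ratio was -0.25 ± 0.09 (limma adjusted p = 0.208), below 0 on both arrays. Col7a1, whose product forms anchoring fibrils under epithelia, was at 0.04 ± 0.02. The other tested chains, Col8a1, Col8a2 and Col10a1 of short networks and the fibril-associated Col19a1, Col20a1 and Col22a1, had means from -0.06 to 0.18 and none reached an unadjusted p under 0.05.

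Where a chain had several tested probes, they did not always give the same value. This was so for 13 chains, and in 4 of them (Col15a1, Col4a4, Col4a6 and Col9a1) the probes lay on both sides of 0, beside 36.0% of the 5451 genes with several tested probes. The median distance between a chain's lowest and highest probe was 0.20, against 0.14 for all such genes, and the largest was 0.41 for Col14a1. The probes of Col26a1 and Col8a2 differed by at most 0.01. The repeat probe of Col15a1 had the highest ratio of that chain's 3 probes, 0.17 ± 0.02, and the brightest the lowest.

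**Figure D4:**
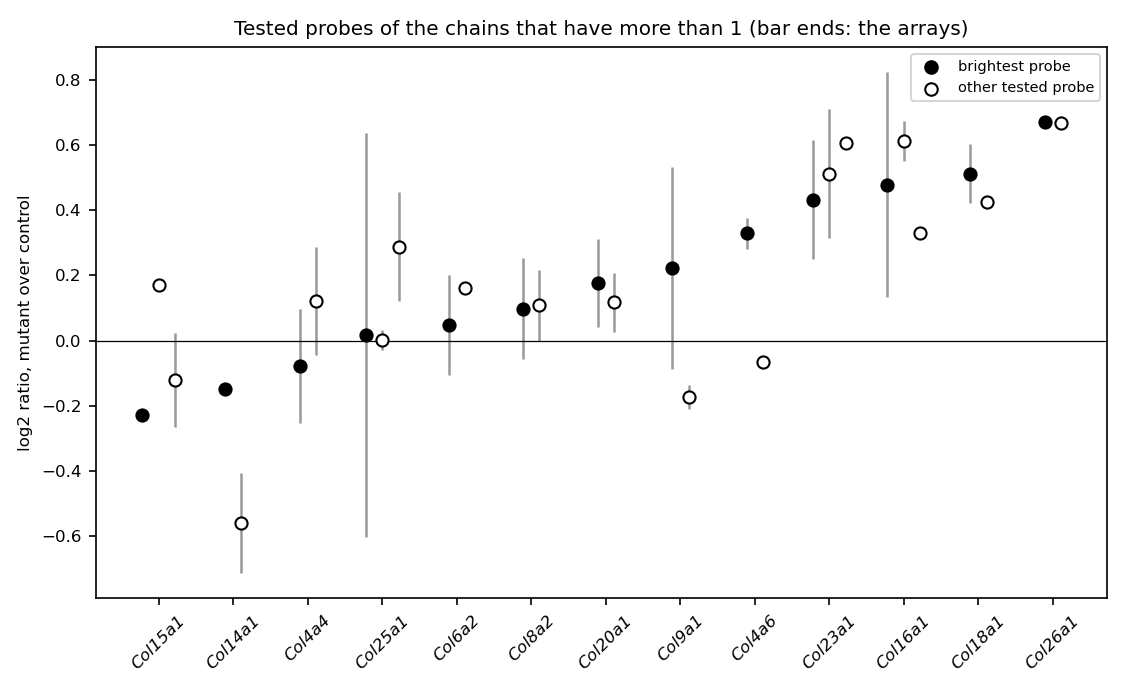
Mean log2 ratio of mutant over control (vertical axis) of each tested probe for the 13 chains with more than 1; filled circles are the brightest probe, open circles the others, and bars run from the ratio on one array to that on the other. The probes of Col23a1, Col16a1, Col18a1 and Col26a1 all lie above 0, and Col14a1 shows the largest distance between probes.

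Of 48 genes that fold, export, trim, cross-link and bind collagen, 45 were tested. None of them passed at an adjusted p under 0.05 with limma, the only tool run. At an unadjusted p under 0.05 there were 10 (22.2%, beside 22.5% of all genes), with 5 above 0 and 5 below, and the median was -0.01. Plod2, the hydroxylase of the lysines at chain ends that later form cross-links, was at 12.81 in control and 12.51 in mutant RNA on array 1, and at 12.67 and 11.91 on array 2. Both mutant RNAs lay below both controls, with a ratio of -0.53 ± 0.33 (adjusted p = 0.0626), and Plod2 passed in 4 of 11 alternatives. Fkbp10, a chaperone and prolyl isomerase of new collagen chains, was at 14.89 and 15.21 on array 1 and at 15.05 and 15.52 on array 2, a ratio of 0.39 ± 0.10 (adjusted p = 0.0822). Sec23a, a coat protein of the vesicles that carry procollagen out of the endoplasmic reticulum, had a ratio of -0.36 ± 0.05 (adjusted p = 0.0959), while Creb3l2, a transcription factor of that export route, had one of 0.27 ± 0.09 (adjusted p = 0.180). The lysyl oxidases, which make the cross-links, were at -0.35 ± 0.14 for Loxl4 (adjusted p = 0.113) and -0.27 ± 0.03 for Lox (adjusted p = 0.185). Loxl1, Loxl2 and Loxl3 were at -0.11, -0.05 and 0.21. A mean below 0 was found in 4 of the 5, and in 11872 of all 21981 genes. Below 0 on both arrays were 3 of the 5, and 36.0% of all genes. The receptors and uptake genes had a median of -0.01, with the collagen-binding integrin subunit Itgb1 and the discoidin domain receptor Ddr1 on opposite sides of 0, at -0.26 ± 0.10 and 0.27 ± 0.19.

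**Figure D5:**
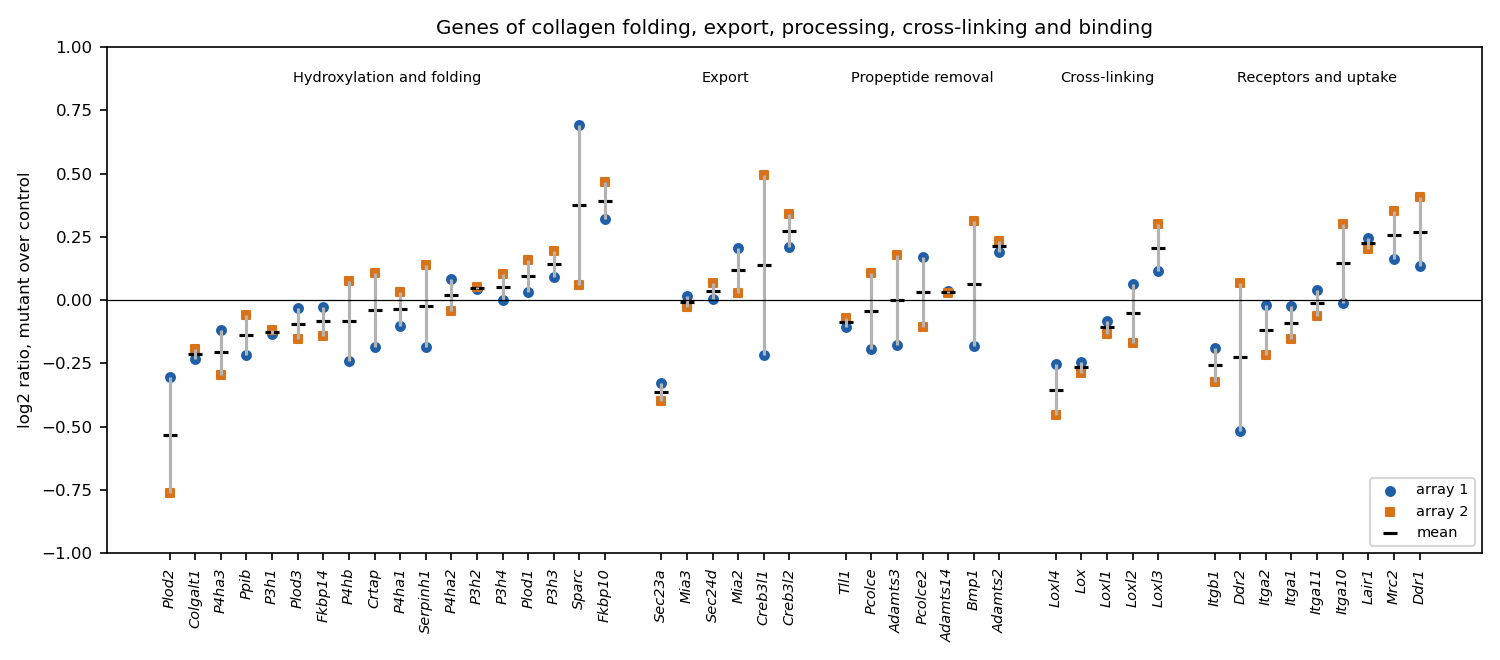
Log2 ratio of mutant over control (vertical axis) of the 45 tested genes for collagen hydroxylation and folding, export, propeptide removal, cross-linking, and receptors and uptake; circles are array 1, squares array 2, and short bars the mean. Plod2 lies lowest, at -0.53, Fkbp10 highest, at 0.39, and none of the genes passed the test.

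Several cell type markers moved between the same RNAs, and in whole ureters fewer cells of a type and less RNA per cell cannot be told apart. Of all genes tested, 1.78% were higher, 2.05% were lower and 22.5% reached an unadjusted p under 0.05. Of the fibroblast markers 2 of 8 were lower, and their summed level in mutant RNA was 0.902 times that of control on array 1 and 0.748 times on array 2. Their defining genes Pdgfra and Dcn were at -0.03 and -0.38. None of 8 smooth muscle markers passed (1 at an unadjusted p under 0.05), with summed ratios of 1.01 and 1.02 and Acta2 and Myh11 at 0.00 and 0.11. Of the epithelial markers 4 of 11 were higher, with summed ratios of 1.31 and 1.54. Among the defining ones, Cdh1 was higher at 0.80 and Upk2 and Epcam were at 0.43 and -0.04. Krt5, a keratin of basal epithelial cells, was the marker of this list below 0 on both arrays, at -0.46 ± 0.30 (limma adjusted p = 0.0830). Endothelial markers were lower in 5 of 8, with summed ratios of 0.711 and 0.775. Of their defining genes Cdh5 was lower at -0.69, while Pecam1 was at -0.35 and did not pass (limma adjusted p = 0.145). Kdr and Eng had opposite signs on the arrays, with means of -0.14 and 0.08. Adipocyte markers were lower in 7 of 7, with summed ratios of 0.599 and 0.305. Macrophage markers were lower in 3 of 6, with summed ratios of 0.808 and 0.710. Neither of their defining genes Adgre1 and Csf1r passed, at -0.34 (opposite signs on the arrays) and -0.20. Schwann and neuronal markers were lower in 3 of 7, with summed ratios of 1.34 and 1.14. Among these the defining gene Prph was lower at -0.78 and the other, Sox10, was at -0.001. Of skeletal muscle markers 1 of 4 was lower, with summed ratios of 0.802 and 0.878. The lower one, Ckm, was dim, at 8.36 in control and 7.06 in mutant RNA on array 1. Of their defining genes Myog was not tested. Acta1, by far the brightest in the sum, was at -0.23 and did not pass (limma adjusted p = 0.247). Epithelial and endothelial cells make Col18a1 and collagen IV, and collagen IV also lies around each smooth muscle cell. Basal epithelial cells make Col17a1, and fibroblasts and smooth muscle make most fibrillar chains. The part of these cell types in the collagen ratios was not tested.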

How the data were processed

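The deposited scanner files hold spot intensity values. The submitters' processing notes name Agilent Feature Extraction, version 10.7.3.1. Processed intensity was background-subtracted, detrended and dye-normalised, and the log10 ratios are red over green of it, per the file headers. The authors also deposited a score for each probe in a value table. It is a signed fold change, its averaging and centring are unknown here, and its direction was read by comparison with the scanner values.

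Mean signals were corrected with limma 3.58.1 (R 4.3.3) by normexp with offset 50 and loess within arrays, leaving out outlier spots (3.17% and 3.65%). The 4 spots of a probe were averaged, and a gene was read from its brightest tested probe. Ratios were turned to mutant over control and tested against 0 with lmFit and eBayes (1 residual and 7.48 prior degrees of freedom), two-sided, with Benjamini-Hochberg adjustment over 21981 genes. The fit was tested on simulated data. Probe coordinates are mm9, with no annotation of that build used here. The replicate number marks an array, so the ratio within it already blocks on it.

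The chains and the lists were chosen with earlier results of these data known. Full values were given for called chains, the 4 smallest p of each class and trimer partners, with others by counts and range or where probes or arrays disagreed, these chosen after their values were seen. Alternatives covered background, normalisation, the value table, filters, the probe rule, variance model, threshold, separate channels and each array alone.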

Additional observations from a re-analysis of the deposited data

Results flagged for a closer look

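Among the 39 tested chains, Col25a1 and Col12a1 had ratios beyond 0.25 on both arrays with opposite signs. Col25a1 stood at -0.60 on array 1 and at 0.64 on array 2, a difference of 1.24. Col12a1 stood at -0.29 on array 1 and at 0.31 on array 2, a difference of 0.60. The arrays differ in replicate, sex label and dye orientation at once, which cannot be told apart, and the difference was not tested. With 1 array per orientation, no probe of these chains has a second measurement of it.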

How the results depend on the processing

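Across 11 alternative fits the ratios of Col26a1, Col9a2 and Col18a1 stayed above 0 in all, and each passed in 7. These 7 kept the normalisation reported, and those that changed only a filter or the variance model reuse the same ratios. Such fits are no separate check of the sign or the call. The number of genes called, 842 in the analysis reported, was 10 with the scanner software's processed signals, 0 with median centring (lowest adjusted p 0.119, with 5567 genes at an unadjusted p under 0.05), 140 with the authors' value table and 3 with separate channels and no replicate block. In these 4 fits 0 chains passed with limma, while 12, 7, 13 and 9 of 39 had an unadjusted p under 0.05. So did 4609, 5567, 4667 and 2386 of all 21981 genes. With a trend in the variance prior 1415 genes were called, and at an adjusted p under 0.1 there were 1915 genes, with 5 chains higher and 1 lower. Taking the mean of a gene's probes called 5 chains higher, adding Col16a1 and Col23a1. The replicate block, the array, is part of the ratio reported, and leaving it out ended all 3 calls. The fibrillar median of 0.12 was 0.19 with processed signals, 0.11 without background subtraction, 0.18 with the value table and -0.064 with median centring, which also took the median of the other chains to -0.080. On single arrays, with no test, the medians were 0.11 and 0.11 for fibrillar chains, 0.062 to 0.274 for basement membrane chains and -0.01 to 0.24 for other chains. Signs changed for 12 chains under median centring, 3 with the value table, 1 with processed signals and 1 with the mean of probes, none of them called. With 1 residual degree of freedom, and dim probes pulled towards 0 by the offset, small differences were not detectable here.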

Other observations

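Some probes described as collagen carry a name outside the pattern used here and were kept apart. Of these 4, 3 were tested: TC1681647 had a mean log2 ratio of -0.16 (limma adjusted p = 0.416), TC1608815 one of -0.06 (adjusted p = 0.781) and LOC102640586 one of -0.18 (adjusted p = 0.335). TC1586596 was not well above background. The letters AATAAA, the usual signal for adding the poly(A) tail, were found in 11 of the 69 collagen probes (15.9%) and in 12.6% of all gene probes. Besides the pairs already named, probes of neighbouring chains lay 112.5 kb apart for Col6a1 and Col6a2, and 343.3 kb apart for Col6a1 and Col18a1, on the same strand of chromosome 10, where Col18a1 was higher at 0.51 and the collagen VI chains were at 0.22 and 0.05. Col9a1 and Col19a1 lay 27.4 kb apart on opposite strands of chromosome 1, with ratios of 0.22 and 0.04.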
